A study of Caenorhabditis elegans with 10 samples.

Results

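The nuclear hormone receptor genes of Caenorhabditis elegans were described in RNA-seq libraries of whole embryos under osmotic stress. Members were all protein-coding genes of the deposited table whose name is nhr- followed by a number, which gave 278 of 45461 genes. Of these, 224 reached at least 1 CPM (a gene's count relative to the library total, scaled by trimmed mean of M values) in at least 2 of 10 libraries and were tested, 52 had counts below that filter and 2 had no count. The libraries form 5 groups of 2, all of embryos collected 3 hours after egg preparation. The groups are lin-45(n2018) embryos on 500 mM NaCl (lin-45 500 mM), wild-type N2 embryos on 500 mM whose parents grew on 300 mM (N2 300-500 mM, or preconditioned), N2 embryos on 500 mM (N2 500 mM), lin-45(n2018) embryos on 50 mM (lin-45 50 mM) and N2 embryos on 50 mM (N2 50 mM). Parents of all groups but the preconditioned one grew on 50 mM. lin-45 encodes the RAF kinase between RAS and ERK, and 1 allele of it was used. The comparisons ask how the receptor genes respond to the embryo's salt, to the mutation and to the parents' salt.

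Nuclear hormone receptors are transcription factors that bind DNA through a pair of zinc fingers and, in many cases, a small lipophilic ligand such as a steroid, bile acid or fatty acid through a separate domain. Insects and mammals have small sets of them, whereas nematodes carry a greatly expanded set derived from an ancestor related to the vertebrate receptor HNF4. A minority of the worm genes have direct counterparts in other animals and act in moulting, cell fate and organ formation, and several of the HNF4-related ones control fat metabolism, diet responses and detoxification.

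The libraries held 22138098 to 34585489 counts, and the receptor genes took 0.516% to 0.602% of them. Replicates differed most in the preconditioned group, where 535 genes stood 2-fold or more apart. There were 352 such genes in lin-45 50 mM and 25 to 48 in the others. Tissue markers of embryos were present, the sperm genes msp reached at most 0.761 CPM per gene, and 1 of 8 of them was at 0 in every library. The labels do not say whether replicates came from separate cultures, so p-values reflect library-to-library spread alone, and that spread may be technical. Changes are log2 fold changes ± SE from edgeR's quasi-likelihood test with adjusted p (Benjamini-Hochberg over all 14802 tested genes, threshold 0.05). With 2 libraries a group, the smallest p an exact permutation test allows is 0.333, and the calls rest on a spread pooled over genes and groups.

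Most of the receptor genes were present at low levels. On the length-corrected scale of the authors' deposited FPKM values, the tested members had a median level of 8.98, against 15.9 for all tested genes. The most abundant were nhr-97 with a mean of 175.9 FPKM over the 10 libraries, nhr-1 with 137.4, nhr-49 with 124 and nhr-3 with 124. Behind them came nhr-46 with 85 FPKM, nhr-31 with 84.7, nhr-66 with 57.7, nhr-34 with 53.3, nhr-45 with 49.2 and nhr-88 with 49, and these 10 genes held 26.6% of the family's summed FPKM. Of the tested members 179 reached 1 CPM in every library. The number at 1 CPM was 197 and 198 in the lin-45 libraries at 500 mM, 195 and 205 in the preconditioned ones and 194 and 195 in the N2 libraries at 500 mM. At 50 mM it was 219 and 220 in the lin-45 libraries and 208 and 209 in the N2 libraries, so each library on 50 mM had more receptor genes at that level than any library on 500 mM. Just inside the 1 CPM rule lay nhr-111, with 0.475 and 0.608 CPM in lin-45 at 500 mM, 1.01 and 1.64 in preconditioned N2, 0.532 and 0.843 in N2 at 500 mM, 0 and 0.24 in lin-45 at 50 mM and 0.705 and 0.469 in N2 at 50 mM. Just outside it lay nhr-175, whose highest library had 0.962 CPM.

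On 500 mM NaCl, receptor genes were more often lower than higher, in both strains. In lin-45, 54 of the 224 tested members (24.1%) were higher on 500 mM and 46.4% were lower, where 33.4% of all tested genes were higher and 34.9% lower. In N2, 45 members (20.1%) were higher on 500 mM and 99 (44.2%) were lower, against 31.4% and 32.1% of all tested genes. The median change of members was -0.26 in lin-45 and -0.31 in N2, and that of all tested genes -0.02 in lin-45 and -0.01 in N2. Falls of at least 2-fold were called for 60 members in lin-45 (26.8%, where the share of all tested genes was 15.4%) and 48 in N2 (21.4%, against 14.2%). Rises of at least 2-fold were called for 11 members in lin-45 (4.91%, against 17.3%) and 7 in N2 (3.12%, against 12.8%). The filter itself set part of these counts, because 20 members passed it only through libraries on 50 mM and 5 only through libraries on 500 mM. Among the 199 members that passed at both salts, 83 fell and 50 rose in lin-45, and 85 fell and 42 rose in N2. The share over all genes that passed at both salts was not computed, so these counts have no matching background.

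The salt comparisons of the strains share no library, and most calls were made in both. 82 members fell in both, which is 78.8% of those that fell in lin-45 and 82.8% of those that fell in N2, where the shares over all tested genes were 69.9% and 76.0%. Another 37 rose in both, 68.5% of those that rose in lin-45 and 82.2% of those that rose in N2, against 67.1% and 71.3% over all tested genes. None of the members, and 327 of all tested genes, were called in opposite directions, and no difference between members and other genes was tested. Across the 224 members the log2 salt changes of the strains had a Pearson correlation of 0.897, against 0.866 over all tested genes, which is a description across genes that are not independent. For 70 members (31.2%) all 6 libraries on 500 mM lay below all 4 on 50 mM, which held for 22.9% of all tested genes, and for 34 (15.2%) they lay above, against 20.2%. At least 1 of the 7 comparisons called 198 members, and 26 were called in none. The share over all tested genes was not computed for this count, so it has no background.

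**Figure D1:**
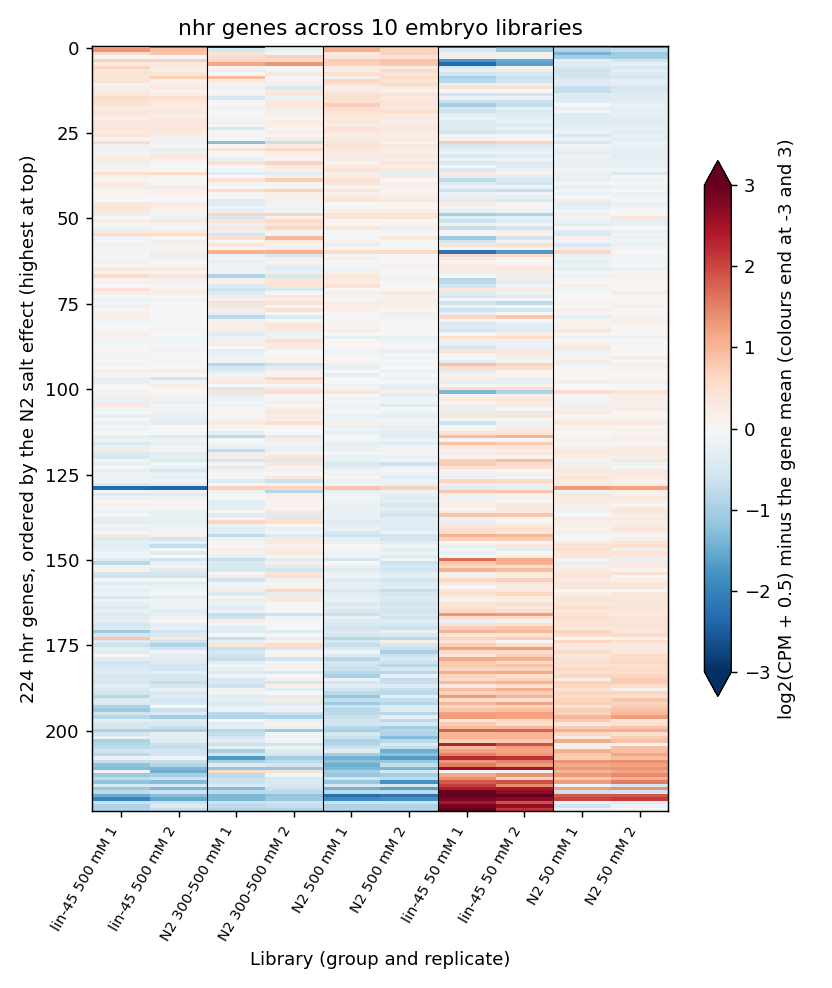
The colour shows log2(CPM + 0.5) of each of the 224 tested receptor genes (rows) in each of the 10 libraries (columns), minus the gene's mean over the libraries, with red above and blue below the mean. Rows are ordered by the N2 salt change, and a block of genes at the bottom is red in the 4 libraries on 50 mM, most deeply in lin-45 50 mM, and blue in the 6 on 500 mM.

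The counts were also taken by level and by class, with no test of the differences between classes. The 20 members that passed the filter only through libraries on 50 mM stayed in these counts. So did the 5 that passed only through libraries on 500 mM. The filter therefore set part of the falls and rises here as well. Of 74 members under 5 FPKM, 48 fell and 9 rose in lin-45, where 29.8% of all tested genes at that level fell and 31.9% rose. In N2, 38 of them fell and 7 rose, against 30.7% and 25.7%. Of 58 members over 20 FPKM, more rose than fell in lin-45, 25 against 18, where 38% of genes at that level rose and 37% fell. In N2, 19 of the 58 rose and 21 fell, against 35.9% and 31.6%. The 11 receptors with counterparts in other animals had 6 members higher and 1 lower on 500 mM in lin-45, and 2 higher and 1 lower in N2. The 6 count nhr-111, which passed the filter only through libraries on 500 mM. Shares of all tested genes were 33.4% higher and 34.9% lower in lin-45, and 31.4% and 32.1% in N2. Among these 11, 1 was higher in N2 without N2 50 mM replicate 2 or N2 500 mM replicate 1. Without lin-45 500 mM replicate 2 or either preconditioned library 2 were lower in N2, and without lin-45 50 mM replicate 2, 2 were lower in lin-45. The other 213 members had 48 higher and 103 lower in lin-45 and 43 higher and 98 lower in N2. Markers of intestine and neurons, tissues where such receptors are known to act, were counted beside the receptors. Of 6 intestine markers, 2 rose and 3 fell on salt in lin-45, and 3 rose and 2 fell in N2. The 6, all present, summed to 2141 to 2214 CPM in lin-45 at 500 mM, 1245 to 1591 in preconditioned N2, 1572 to 1844 in N2 at 500 mM, 4394 to 4710 in lin-45 at 50 mM and 2559 to 2872 in N2 at 50 mM. The protease gene asp-1 made up most of that sum, with 1936 and 1877 CPM in lin-45 at 500 mM, 1037 and 1357 in preconditioned N2, 1532 and 1264 in N2 at 500 mM, 4496 and 4188 in lin-45 at 50 mM and 2420 and 2724 in N2 at 50 mM. The sum of the 5 others was higher on salt. In lin-45 it was 264 to 278 CPM at 500 mM and 205 to 213 at 50 mM. In N2 it was 308 to 311 CPM at 500 mM, 208 to 234 in preconditioned embryos and 138 to 148 at 50 mM. Among the 5, cpr-6 had means of 169 CPM at 500 mM and 24.4 at 50 mM in lin-45, and 202.5 and 30.7 in N2. On salt elt-7 also rose in both strains and spl-1 fell in both. ges-1 rose in N2 and fell in lin-45, and elt-2 was called on salt in neither strain. Of 5 neuron markers, 3 fell and 1 rose in lin-45, and 4 fell and 1 rose in N2. The 5 neuron markers, also all present, summed to 587 to 603 CPM in lin-45 at 500 mM, 608 to 778 in preconditioned N2, 558 to 592 in N2 at 500 mM, 795 to 810 in lin-45 at 50 mM and 947 to 973 in N2 at 50 mM. Their part in the result was not tested, and in whole-embryo RNA fewer cells of a type and less RNA per cell cannot be told apart.

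The receptor genes with the deepest falls included nhr-178, nhr-210, nhr-106 and nhr-142. nhr-178 (F16B4.9, chromosome V, bases 1603931 to 1607846 on the minus strand, genome build ce10) had 1.93 and 2.33 CPM in lin-45 at 500 mM, 2.16 and 2.49 in preconditioned N2 and 0.931 and 1.05 in N2 at 500 mM. On 50 mM it had 54.9 and 53.4 CPM in lin-45 and 23.8 and 24.6 in N2. Every library on 500 mM was far below every library on 50 mM, and lin-45 50 mM stood above N2 50 mM. The change on salt was -4.67 ± 0.13 in lin-45 (adjusted p = 9.43e-08) and -4.61 ± 0.14 in N2 (adjusted p = 3.01e-07). Its neighbour nhr-177 (F16B4.1, chromosome V, bases 1610334 to 1612747 on the plus strand) fell less, with changes of -1.29 ± 0.11 in lin-45 (adjusted p = 1.51e-05) and -1.54 ± 0.11 in N2 (adjusted p = 8.6e-06).

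nhr-210 (R11G11.12, chromosome V, bases 517185 to 519546 on the minus strand) had 0.317 and 0.608 CPM in lin-45 at 500 mM, 0.775 and 0.996 in preconditioned N2 and 0.366 and 0.421 in N2 at 500 mM. On 50 mM the values were 22.6 and 20.8 CPM in lin-45 and 12.7 and 13.2 in N2. It was below 1 CPM in all 6 libraries on 500 mM, and its model overlaps a pseudogene on the same strand, so reads of the pair cannot be told apart. Its salt change was -5.55 ± 0.25 in lin-45 and -5.04 ± 0.26 in N2. nhr-106 (T01G6.4, chromosome V, bases 489647 to 491431 on the plus strand) had 0.634 and 0.473 CPM in lin-45 at 500 mM, 0.508 and 1.08 in preconditioned N2 and 0.432 and 0.295 in N2 at 500 mM. The libraries on 50 mM had 12.5 and 12.7 CPM in lin-45 and 5.42 and 5.94 in N2. Like nhr-210 it passed the filter only through the libraries on 50 mM, so the changes of both are given as descriptions with no p, and the salts did not overlap. It changed by -4.49 ± 0.33 in lin-45 and -3.93 ± 0.36 in N2.

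nhr-142 (F44E7.8, chromosome V, bases 5785940 to 5789411 on the minus strand) had 5.58 and 5.34 CPM in lin-45 at 500 mM, 6.2 and 6.24 in preconditioned N2 and 5.42 and 5.27 in N2 at 500 mM. Levels on 50 mM were 88.1 and 82.3 CPM in lin-45 and 36.5 and 37.3 in N2. The 6 libraries on 500 mM lay within a narrow band whatever the strain or the parents' salt, and the strains differed on 50 mM. The change was -3.96 ± 0.09 in lin-45 (adjusted p = 4.86e-08) and -2.79 ± 0.09 in N2 (adjusted p = 3.31e-07), and the strains' falls differed (interaction -1.18 ± 0.12, adjusted p = 0.00277). The gene overlaps another protein-coding model on the same strand. The neighbours nhr-115 and nhr-225 overlap each other on opposite strands, and the strandedness of counting is not given in the sources used here, so their N2 changes of -3.41 and -2.82 (adjusted p = 1.79e-05 and 3.67e-05) cannot be taken as separate.

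Another set of receptor genes was close to silent except in lin-45 50 mM. nhr-155 (C14C6.4, chromosome V, bases 539202 to 541487 on the plus strand) had 0 and 0.0676 CPM in lin-45 at 500 mM, 0 and 0 in preconditioned N2, 0 and 0 in N2 at 500 mM, 7.06 and 5.02 in lin-45 at 50 mM and 0.0441 and 0.0938 in N2 at 50 mM. nhr-74 (C27C7.3, chromosome I, bases 11429061 to 11432054 on the plus strand) had 0 and 0.0676 CPM in lin-45 at 500 mM, 0 and 0 in preconditioned N2, 0 and 0 in N2 at 500 mM, 7.16 and 3.64 in lin-45 at 50 mM and 0.352 and 0.438 in N2 at 50 mM. nhr-245 (ZK1025.10, chromosome I, bases 11477811 to 11480061 on the plus strand) had 0 and 0.203 CPM in lin-45 at 500 mM, 0.0534 and 0.0878 in preconditioned N2, 0 and 0 in N2 at 500 mM, 6.46 and 5.46 in lin-45 at 50 mM and 0.132 and 0.344 in N2 at 50 mM. In all of nhr-155, nhr-74 and nhr-245 both lin-45 50 mM libraries were above all others, which were under 1 CPM. These members passed the filter only through lin-45 50 mM, so they had to differ there and are described with no test. Over both libraries of a group, nhr-155 had 299 counts in lin-45 50 mM, against 4 in N2 50 mM, nhr-74 had 261, against 22, and nhr-245 had 299, against 14. In lin-45 on 500 mM, nhr-155 and nhr-74 kept 2 counts each over both libraries, against 299 and 261 on 50 mM, which are ratios of 0.00555 (95% interval 0.000669 to 0.0202) and 0.00636 (0.000766 to 0.0232) after scaling. Such intervals cover counting error only.

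**Figure D2:**
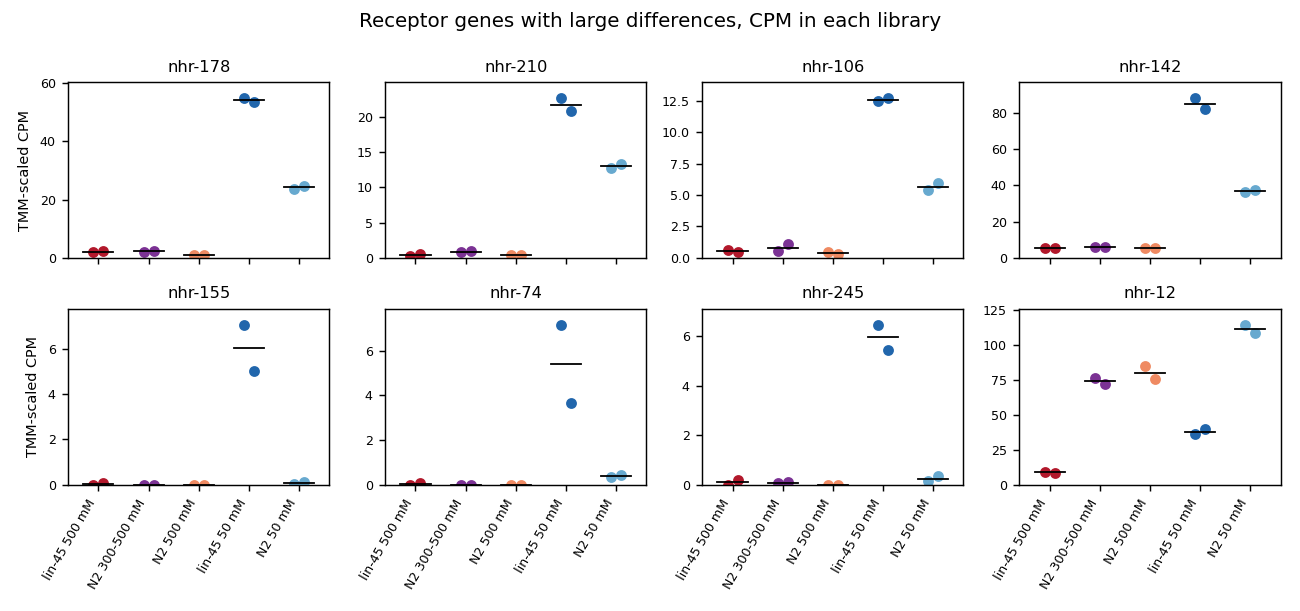
Each panel gives 1 receptor gene, with its TMM-scaled CPM in each library (points) and the mean of the 2 libraries of a group (line), on axes that start at 0. nhr-178, nhr-210, nhr-106 and nhr-142 are low in all libraries on 500 mM, nhr-155, nhr-74 and nhr-245 are near 0 in all groups but lin-45 50 mM, and nhr-12 is lowest in lin-45 500 mM, at 8.94 and 8.55 CPM.

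Among the receptors with counterparts in other animals, nhr-23, nhr-41, nhr-91, nhr-67 and nhr-48 responded differently to salt in the 2 strains. nhr-23 (C01H6.5, chromosome I, bases 7214742 to 7221804 on the plus strand), the counterpart of insect DHR3 and mammalian ROR that drives moulting, had 54.6 and 52.7 CPM in lin-45 at 500 mM, 80.9 and 89.1 in preconditioned N2 and 73.2 and 75.1 in N2 at 500 mM. The 50 mM libraries held 63.7 and 49.2 CPM in lin-45 and 27.5 and 27.2 in N2. The N2 50 mM libraries were lowest, and the lin-45 libraries of both salts overlapped. Its level in lin-45 was already above N2 on 50 mM, by 1.04 ± 0.12 (adjusted p = 0.000233), and the salt change in lin-45 minus that in N2, the interaction, was -1.51 ± 0.17 (adjusted p = 0.00324). The value in lin-45 on salt was -0.07 ± 0.12 (adjusted p = 0.6).

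nhr-41 (Y104H12A.1, chromosome IV, bases 1386161 to 1399352 on the plus strand), the counterpart of mammalian TR2 and TR4, had 63.6 and 72 CPM in lin-45 at 500 mM, 90.8 and 101 in preconditioned N2 and 89.4 and 77.7 in N2 at 500 mM. On 50 mM, lin-45 libraries had 27 and 36.1 CPM and N2 libraries 103 and 91.9. The low group was lin-45 50 mM, below all other libraries. The change in lin-45 against N2 on 50 mM was -1.62 ± 0.15 (adjusted p = 0.000122). On salt it rose in lin-45 by 1.1 ± 0.15 (adjusted p = 0.000197), and the value in N2 was -0.22 ± 0.14 (adjusted p = 0.208). The interaction was 1.32 ± 0.20 (adjusted p = 0.00689).

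nhr-91 (Y15E3A.1, chromosome X, bases 15309304 to 15314830 on the plus strand), the counterpart of mammalian germ cell nuclear factor, had 49.5 and 52.6 CPM in lin-45 at 500 mM, 90.4 and 92.6 in preconditioned N2 and 76.1 and 74.4 in N2 at 500 mM. On 50 mM it had 28.5 and 30.1 CPM in lin-45 and 65.7 and 58.6 in N2. No group overlapped another, and both lin-45 groups lay below the 3 N2 groups. The change in lin-45 against N2 was -0.56 ± 0.08 on 500 mM (adjusted p = 0.00548) and -1.08 ± 0.08 on 50 mM (adjusted p = 7.52e-05). Its interaction was 0.52 ± 0.12 (adjusted p = 0.0152). The call on 500 mM was lost without N2 500 mM replicate 1 or lin-45 500 mM replicate 1 (adjusted p = 0.0529 and 0.0729), and the interaction without N2 50 mM replicate 1, lin-45 50 mM replicate 1 or N2 500 mM replicate 2 (adjusted p = 0.071, 0.0524 and 0.0613).

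nhr-67, the counterpart of insect tailless that acts in the uterine anchor cell and in neurons, had 14.8 and 15.1 CPM in lin-45 at 500 mM, 21.8 and 21.3 in preconditioned N2 and 18.3 and 17.6 in N2 at 500 mM. On 50 mM the values were 9.93 and 9 CPM in lin-45 and 17.1 and 16.6 in N2. The low group was again lin-45 50 mM, -0.84 ± 0.10 against N2 50 mM (adjusted p = 0.000251). Its interaction of 0.57 ± 0.13 (adjusted p = 0.0189) was lost in 5 of the 10 fits that left out 1 library, those without N2 50 mM replicate 1, N2 50 mM replicate 2, lin-45 50 mM replicate 2, N2 500 mM replicate 2 or lin-45 500 mM replicate 1 (adjusted p from 0.0511 to 0.078). nhr-25, the counterpart of insect Ftz-F1 and a regulator of epidermis and moulting, was lower in lin-45 50 mM too, at 74.1 and 75.3 CPM, against 100 and 98.3 CPM in N2 at 50 mM (-0.41 ± 0.08, adjusted p = 0.00256). nhr-48, related to insect DHR96, likewise had 73.6 and 72.5 CPM in lin-45 at 50 mM, against 101 and 97.7 CPM in N2 at 50 mM (-0.44 ± 0.09, adjusted p = 0.00379). Its interaction of 0.43 ± 0.13 (adjusted p = 0.0408) was lost without lin-45 500 mM replicate 1 and without any 1 of the 6 libraries of the other groups in that comparison (adjusted p from 0.0746 to 0.13).

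In all, 6 of the 11 counterparts were lower in lin-45 than in N2 on 50 mM and 2 were higher, nhr-23 and nhr-85, where 21.1% of all tested genes were lower and 33.2% higher. nhr-85, the counterpart of insect E75 and mammalian Rev-erb, had 26.6 and 25.6 CPM in lin-45 at 50 mM, against 18.7 and 19.9 CPM in N2 at 50 mM (0.43 ± 0.12, adjusted p = 0.0161), and the call was lost without N2 50 mM replicate 1 or lin-45 50 mM replicate 1 (adjusted p = 0.0987 and 0.0723) and with no filter on low counts (adjusted p = 0.1). Of the others outside that list, 53 of 213 were higher (24.9%) and 26 lower (12.2%). Of 5 epidermal markers, 4 were lower in lin-45 than in N2 on 50 mM and none higher, as nhr-41, nhr-91, nhr-67, nhr-25 and nhr-48 were. The 5, all present, summed to 1267 to 1270 CPM in lin-45 at 500 mM, 1606 to 1767 in preconditioned N2, 1536 to 1550 in N2 at 500 mM, 503 to 578 in lin-45 at 50 mM and 985 to 1077 in N2 at 50 mM. Their part in these differences was not tested.

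The counterpart that fell with salt in both strains was nhr-6 (C48D5.1, chromosome III, bases 3573571 to 3578759 on the plus strand), the worm NR4A receptor, which is needed to form the spermatheca. It had 4.69 and 4.7 CPM in lin-45 at 500 mM, 3.79 and 4.42 in preconditioned N2 and 2.99 and 3.37 in N2 at 500 mM. The libraries on 50 mM had 20 and 23.1 CPM in lin-45 and 20.4 and 21.4 in N2. All libraries on 500 mM were under 5 CPM and all on 50 mM near 20 CPM or above, with the strains of 1 salt close together. The change was -2.20 ± 0.13 in lin-45 (adjusted p = 2.26e-06) and -2.72 ± 0.14 in N2 (adjusted p = 1.41e-06).

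**Figure D3:**
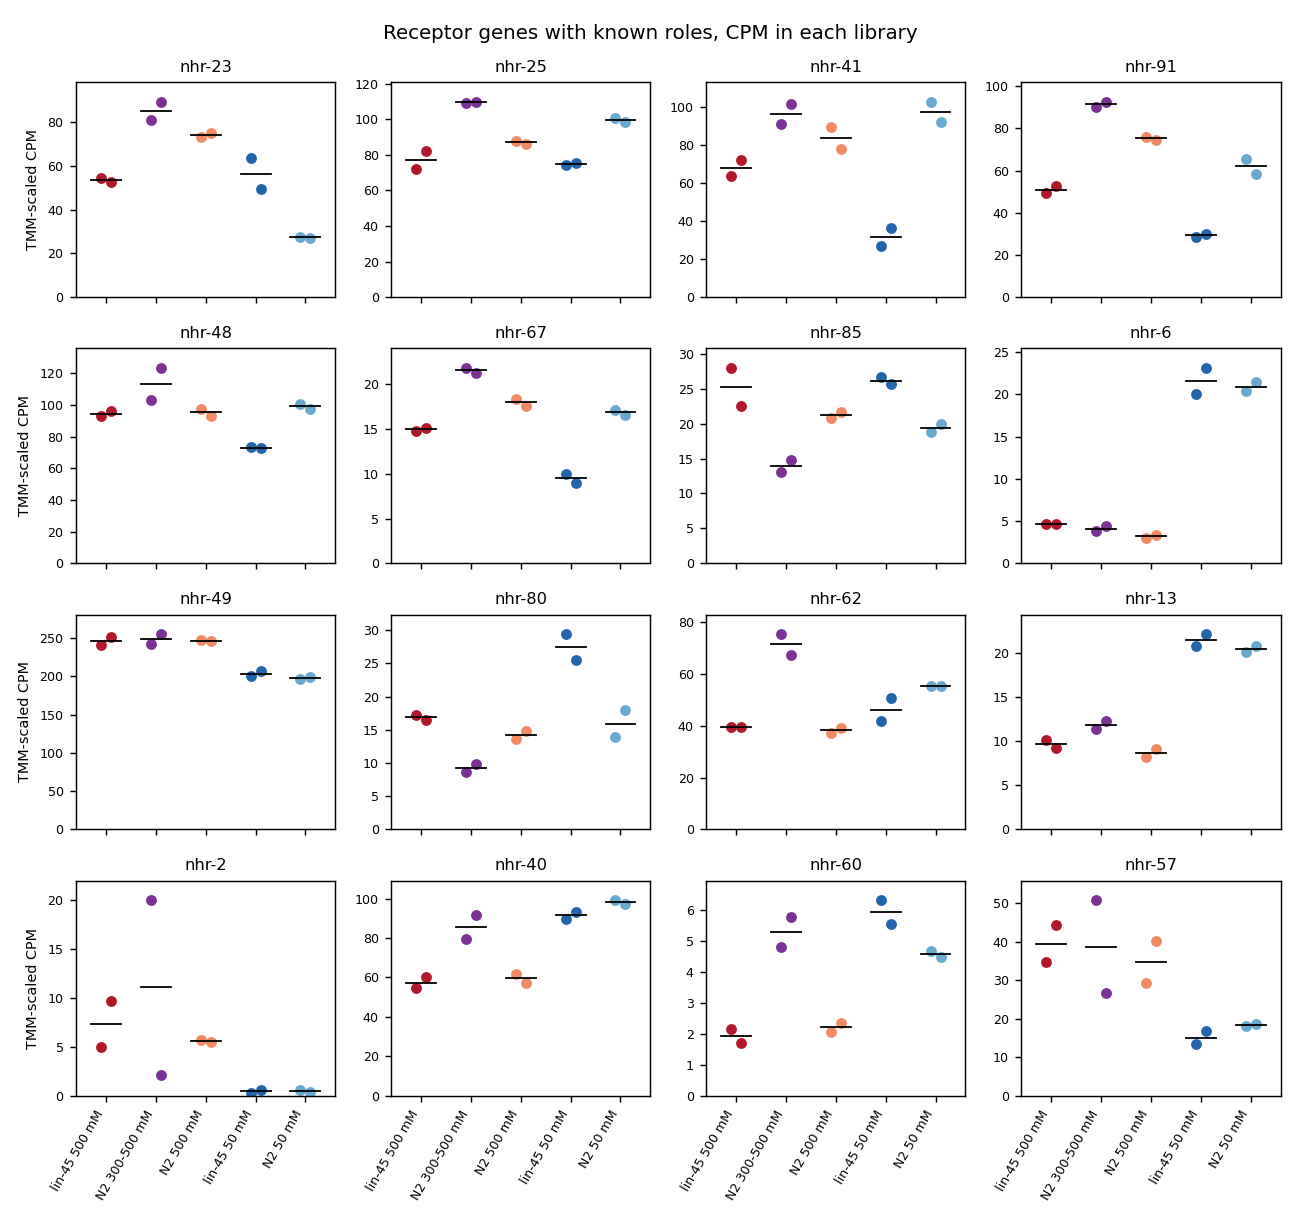
Panels give TMM-scaled CPM in each library (points) and group means (lines) for 16 receptor genes with known roles, on axes that start at 0. nhr-41, nhr-91 and nhr-67 are lowest in lin-45 50 mM, nhr-23 is lowest in N2 50 mM, nhr-6 and nhr-13 are lower in all libraries on 500 mM, and nhr-62 is highest in N2 300-500 mM.

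Receptors of fat metabolism moved in both directions. nhr-49 (K10C3.6, chromosome I, bases 9869653 to 9874667 on the plus strand), a regulator of fatty acid desaturation and beta-oxidation, had 241 and 251 CPM in lin-45 at 500 mM, 242 and 255 in preconditioned N2 and 247 and 247 in N2 at 500 mM. Levels on 50 mM were 200 and 206 CPM in lin-45 and 197 and 199 in N2. All 6 libraries on 500 mM lay above all 4 on 50 mM, by 0.27 ± 0.07 in lin-45 (adjusted p = 0.0057) and 0.32 ± 0.07 in N2 (adjusted p = 0.00299, or 0.0681 with no filter on low counts). Its partner nhr-13 moved the other way, with 10.1 and 9.22 CPM in lin-45 at 500 mM, 8.28 and 9.19 in N2 at 500 mM, 20.9 and 22.2 in lin-45 at 50 mM and 20.2 and 20.8 in N2 at 50 mM. The change was -1.16 ± 0.11 in lin-45 (adjusted p = 2.38e-05) and -1.23 ± 0.11 in N2 (adjusted p = 2.21e-05), with no overlap between salts. nhr-80, which promotes desaturase expression, stood at 29.4 and 25.5 CPM in lin-45 at 50 mM, above the other 8 libraries, and was higher there than in N2 50 mM by 0.78 ± 0.14 (adjusted p = 0.00201). It fell on salt in lin-45 (-0.70 ± 0.14, adjusted p = 0.00213), and the value in N2 was -0.17 ± 0.14 (adjusted p = 0.316). The interaction was -0.52 ± 0.20 (adjusted p = 0.0837).

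nhr-10, which with nhr-68 switches on the propionate shunt, and nhr-64 rose on salt in both strains. In lin-45 the changes were 0.29 ± 0.09 for nhr-10 (adjusted p = 0.0237) and 0.43 ± 0.10 for nhr-64 (adjusted p = 0.00549), and the value for nhr-68 was 0.30 ± 0.12 (adjusted p = 0.0522). The lin-45 call of nhr-10 was lost without lin-45 50 mM replicate 1, lin-45 50 mM replicate 2 or lin-45 500 mM replicate 1 (adjusted p = 0.0823, 0.0902 and 0.0577), and that of nhr-64 without lin-45 50 mM replicate 2 (adjusted p = 0.0519). In N2 the libraries on 500 mM were above those on 50 mM for all of nhr-10, nhr-64 and nhr-68. nhr-10 had 54.4 and 50.3 CPM in N2 at 500 mM, against 35.9 and 38.2 in N2 at 50 mM (0.50 ± 0.09, adjusted p = 0.00171). nhr-64 had 21.1 and 21.1 CPM in N2 at 500 mM, against 13.3 and 13.7 in N2 at 50 mM (0.64 ± 0.10, adjusted p = 0.00071). nhr-68 had 20.2 and 24.1 CPM in N2 at 500 mM, against 15.9 and 16.1 in N2 at 50 mM (0.47 ± 0.12, adjusted p = 0.00858), a call lost without N2 500 mM replicate 2 (adjusted p = 0.0676). Over the 10 metabolic receptors, 3 were higher and 3 lower on salt in lin-45, and 4 higher and 3 lower in N2. Shares of all tested genes were 33.4% higher and 34.9% lower in lin-45, and 31.4% and 32.1% in N2. In preconditioned embryos against N2 50 mM, 7 were higher and 2 lower, where 30.4% of all tested genes were higher and 27.9% lower. The 7 were 3 without N2 50 mM replicate 1, 4 without N2 50 mM replicate 2 and 4 with no filter on low counts. The 3 higher in lin-45 were 1 without lin-45 50 mM replicate 2 and 5 without either preconditioned library. nhr-114, which ties diet to germline growth, was not called in any comparison, at 57.9 and 57.5 CPM in lin-45 at 500 mM and 45.8 and 50.8 CPM in N2 at 50 mM.

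Known targets of these receptors were measured beside them. On salt, 33.4% of all tested genes rose and 34.9% fell in lin-45, and 31.4% rose and 32.1% fell in N2. Of 6 tested targets of NHR-49, 3 rose and 3 fell on salt in lin-45, and 3 rose and 1 fell in N2, or 2 fell without either lin-45 50 mM library. acs-2, an acyl-CoA synthetase of beta-oxidation, had 67.8 and 61.9 CPM in lin-45 at 500 mM, 9.22 and 3.46 in preconditioned N2 and 65.7 and 79.9 in N2 at 500 mM. The 50 mM libraries held 5.03 and 14.4 CPM in lin-45 and 2.33 and 1.78 in N2. The libraries on 500 mM of parents on 50 mM were high, and the preconditioned ones lay far below them, a change of -3.51 ± 0.50 between the N2 groups on 500 mM (adjusted p = 0.00218). Against N2 50 mM the preconditioned change was 1.65 ± 0.58 (adjusted p = 0.037), a call lost without any 1 library of N2 50 mM, N2 500 mM or lin-45 500 mM or without preconditioned replicate 1 (adjusted p from 0.0518 to 0.365). fat-6, a stearoyl-CoA desaturase, had 80.7 and 117 CPM in preconditioned N2, 338 and 302 in N2 at 500 mM and 47.2 and 61.9 in N2 at 50 mM. The preconditioned libraries lay between the other N2 groups, below N2 500 mM (-1.70 ± 0.19, adjusted p = 0.000922) and above N2 50 mM (0.85 ± 0.19, adjusted p = 0.00532). In contrast, cpt-5, a carnitine palmitoyltransferase, fell on salt in N2 (-4.65 ± 0.21, adjusted p = 9.34e-07). All 5 genes of the propionate shunt rose on salt in N2, and 3 rose on salt in lin-45. The salt rises in each strain count acdh-1, which the filter passed only through libraries on 500 mM. All 5 were lower in preconditioned embryos than in N2 500 mM, where 12.0% of all tested genes were lower. acdh-1, the acyl-CoA dehydrogenase at the start of that shunt, had 39.2 and 38.5 CPM in lin-45 at 500 mM, 27 and 18.9 in preconditioned N2 and 36.6 and 36.3 in N2 at 500 mM. On 50 mM, lin-45 libraries had 0.0923 and 0.206 CPM and N2 libraries 0.352 and 0.0938. The 4 libraries on 50 mM were all under 1 CPM, so acdh-1 passed the filter only through libraries on 500 mM, and its salt changes of 7.91 ± 0.36 in lin-45 and 7.46 ± 0.35 in N2 are given with no p. Its change in preconditioned N2 against N2 500 mM was -0.67 ± 0.20 (adjusted p = 0.0453). That call was lost without either N2 500 mM library, either lin-45 500 mM library or preconditioned replicate 2 (adjusted p from 0.0837 to 0.157) and with upper-quartile factors (adjusted p = 0.0506).

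Salt raised 33.4% of all tested genes and lowered 34.9% in lin-45, and raised 31.4% and lowered 32.1% in N2. Of the 6 receptors linked to stress and detoxification, 3 rose and 3 fell on salt in lin-45, and 2 rose and 3 fell in N2. The rises were 1 in lin-45 without lin-45 50 mM replicate 1 or lin-45 500 mM replicate 1, and 1 in N2 without either N2 50 mM library. nhr-57, a target of the hypoxia factor HIF-1, had 34.8 and 44.3 CPM in lin-45 at 500 mM, 50.9 and 26.7 in preconditioned N2 and 29.2 and 40.3 in N2 at 500 mM. On 50 mM it had 13.3 and 16.7 CPM in lin-45 and 18 and 18.6 in N2. All libraries on 500 mM were above all on 50 mM, with replicates on 500 mM far apart. It rose by 1.39 ± 0.29 in lin-45 (adjusted p = 0.00273) and by 0.92 ± 0.29 in N2 (adjusted p = 0.0217), the last lost without N2 50 mM replicate 1, N2 50 mM replicate 2 or N2 500 mM replicate 2 (adjusted p = 0.0918, 0.0847 and 0.136). nhr-45, which acts in the response to mitochondrial damage, had 77.3 and 83.9 CPM in lin-45 at 500 mM, 83.4 and 95.2 in preconditioned N2 and 70.1 and 61.7 in N2 at 500 mM. On 50 mM the values were 118.5 and 127.8 CPM in lin-45 and 118.7 and 116.5 in N2. The salts did not overlap, and the change was -0.61 ± 0.10 in lin-45 (adjusted p = 0.000533) and -0.84 ± 0.10 in N2 (adjusted p = 0.000112). nhr-86, a receptor of the immune response, fell as well, with -0.61 ± 0.10 in lin-45 (adjusted p = 0.000492) and -0.46 ± 0.10 in N2 (adjusted p = 0.00277), and overlaps a protein-coding gene on the other strand.

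nhr-31, which controls the proton pump genes of the excretory cell, the worm's osmoregulatory organ, was among the abundant members. It had 162 and 169 CPM in lin-45 at 500 mM, 213 and 265 in preconditioned N2 and 173 and 159 in N2 at 500 mM. The libraries on 50 mM had 173 and 183 CPM in lin-45 and 239 and 238 in N2. Preconditioned N2 overlapped N2 at 50 mM, and both lay above the other 3 groups. N2 embryos on 500 mM were below N2 on 50 mM (-0.52 ± 0.10, adjusted p = 0.00248), and the preconditioned libraries were above N2 500 mM by 0.52 ± 0.10 (adjusted p = 0.00943), a call lost without N2 500 mM replicate 2 (adjusted p = 0.0769). Against N2 50 mM the preconditioned libraries differed by 0.00 ± 0.10 (adjusted p = 0.986). In lin-45 the salt change was -0.11 ± 0.10 (adjusted p = 0.394), and the difference from the N2 change was 0.41 ± 0.15 (adjusted p = 0.0682).

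nhr-2 (C32F10.6, chromosome I, bases 5818481 to 5821111 on the minus strand), a receptor gene transcribed in early embryos, was near silent on 50 mM and present on 500 mM. It had 4.94 and 9.63 CPM in lin-45 at 500 mM, 20 and 2.14 in preconditioned N2 and 5.69 and 5.52 in N2 at 500 mM. Levels on 50 mM were 0.277 and 0.55 CPM in lin-45 and 0.529 and 0.375 in N2. All libraries on 500 mM were above all on 50 mM, and the preconditioned replicates lay on either side of the other groups on 500 mM. It passed the filter only through libraries on 500 mM, so its changes of 4.07 ± 1.05 in lin-45 and 3.65 ± 1.04 in N2 are given with no p. Of 7 markers of maternal RNA, 6 rose on salt in lin-45 and 4 in N2, and none fell. The rises in each strain count nos-2, which passed the filter only through libraries on 500 mM. The 7, all present, summed to 51.3 to 73 CPM in lin-45 at 500 mM, 26.4 to 118.7 in preconditioned N2, 32 to 50.4 in N2 at 500 mM, 13.4 to 16.6 in lin-45 at 50 mM and 11.4 to 12.4 in N2 at 50 mM. Early zygotic markers, of which 2 of 6 passed the filter and end-1, tbx-37 and tbx-38 were at 0 in 3, 4 and 5 libraries, summed to 3.07 to 5.47 CPM in lin-45 at 500 mM, 0.673 to 9.99 in preconditioned N2, 2.15 to 2.59 in N2 at 500 mM, 0.554 to 0.618 in lin-45 at 50 mM and 0.344 to 0.441 in N2 at 50 mM. In the maternal and early zygotic lists, preconditioned replicate 1 was the high library, as it was for nhr-2. Late differentiation markers, 6 in all, rose too, with 4 higher and 0 lower on salt in lin-45 and 3 higher and 1 lower in N2. Their sum was 9213 to 9840 CPM in lin-45 at 500 mM and 7414 to 8241 at 50 mM. In N2 it was 8252 to 8517 CPM at 500 mM, 5777 to 6796 in preconditioned embryos and 6550 to 6664 at 50 mM. The part of these 3 lists in the result was not tested.

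Of the 7 receptors of development, which include nhr-2, nhr-6, nhr-23, nhr-25 and nhr-67, 2 rose and 3 fell on salt in each strain. Over all tested genes, 33.4% rose and 34.9% fell in lin-45, and 31.4% rose and 32.1% fell in N2. The rises in each strain count nhr-2, which passed the filter only through libraries on 500 mM. The rises in N2 were 1 without either N2 50 mM library. The falls were those of nhr-6, nhr-40 and nhr-60. nhr-40, which acts in embryonic muscle and body shape, had 54.4 and 60.2 CPM in lin-45 at 500 mM, 79.4 and 91.4 in preconditioned N2 and 61.9 and 57.3 in N2 at 500 mM. The 50 mM libraries held 89.5 and 93.3 CPM in lin-45 and 99.2 and 97.4 in N2. The libraries of parents on 50 mM did not overlap between salts, and the change was -0.67 ± 0.09 in lin-45 (adjusted p = 0.00023) and -0.72 ± 0.09 in N2 (adjusted p = 0.000197). nhr-60, needed in epidermal seam cells, had 2.15 and 1.69 CPM in lin-45 at 500 mM, 4.81 and 5.77 in preconditioned N2 and 2.06 and 2.36 in N2 at 500 mM. On 50 mM, lin-45 libraries had 6.33 and 5.57 CPM and N2 libraries 4.67 and 4.5. Preconditioned libraries stood with those on 50 mM, above the other 4 libraries on 500 mM, and the gene overlaps a protein-coding model on the other strand. The salt change was -1.62 ± 0.20 in lin-45 (adjusted p = 0.000117) and -1.05 ± 0.20 in N2 (adjusted p = 0.00173).

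The salt responses of the strains differed for 24 of the 224 receptor genes (10.7%), where 26.4% of all tested genes differed. The difference, salt change in lin-45 minus that in N2, was above 0 for 9 members (4.02%, against 12.2% of all tested genes) and below 0 for 15 (6.70%, against 14.3%). The split moved with the scaling: relative log expression factors gave 12 above and 9 below, and upper-quartile factors 16 above and 9 below. With single libraries left out the counts ran from 2 to 41 above and from 5 to 13 below, with 41 above without either preconditioned library and 2 above and 5 below without N2 50 mM replicate 1.

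nhr-218 and nhr-127 lie next to each other on the plus strand of chromosome V (bases 16258421 to 16260666 and 16262274 to 16263871). nhr-218 had 4.31 and 5.17 CPM in lin-45 at 500 mM, 9.99 and 10 in preconditioned N2, 6.95 and 7.08 in N2 at 500 mM, 0.6 and 1.06 in lin-45 at 50 mM and 7.4 and 4.84 in N2 at 50 mM. nhr-127 had 11.6 and 12 CPM in lin-45 at 500 mM, 22.4 and 24.9 in preconditioned N2, 16.3 and 17.3 in N2 at 500 mM, 1.57 and 2.82 in lin-45 at 50 mM and 7.45 and 7.91 in N2 at 50 mM. Both were lowest in lin-45 50 mM and highest in the preconditioned group, with no overlap of either group with the rest. On salt nhr-218 rose in lin-45 by 2.47 ± 0.30 (adjusted p = 0.000103) and had 0.20 ± 0.24 in N2 (adjusted p = 0.475). nhr-127 rose by 2.39 ± 0.21 in lin-45 (adjusted p = 1.73e-05) and 1.12 ± 0.19 in N2 (adjusted p = 0.000813). The interactions were 2.26 ± 0.38 (adjusted p = 0.00844) and 1.27 ± 0.28 (adjusted p = 0.0154), the last lost without N2 50 mM replicate 1, N2 50 mM replicate 2 or N2 500 mM replicate 2 (adjusted p = 0.0583, 0.051 and 0.0542).

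nhr-221 (T24A6.8, chromosome V, bases 3532999 to 3535232 on the minus strand) rose in both strains and more in lin-45, with 5.36 and 5.54 CPM in lin-45 at 500 mM, 5.65 and 6.24 in N2 at 500 mM, 0.6 and 0.79 in lin-45 at 50 mM and 2.56 and 1.94 in N2 at 50 mM. The strains stood close together on 500 mM and apart on 50 mM. The change in lin-45 against N2 was -0.12 ± 0.19 on 500 mM (adjusted p = 0.732) and -1.66 ± 0.24 on 50 mM (adjusted p = 0.000592). The interaction was 1.53 ± 0.30 (adjusted p = 0.0115), lost without N2 50 mM replicate 1 (adjusted p = 0.0525). Below 0 stood nhr-137 (C56E10.4, chromosome X, bases 6661754 to 6668967 on the minus strand), which had 20.2 and 22.5 CPM in lin-45 at 500 mM, 20.4 and 22.3 in N2 at 500 mM, 25.4 and 24.9 in lin-45 at 50 mM and 11 and 11.8 in N2 at 50 mM. N2 50 mM was the low group, as it was for nhr-23, and the interaction was -1.13 ± 0.18 (adjusted p = 0.00751). nhr-145, which overlaps another protein-coding model, fell on salt in lin-45 (-1.24 ± 0.11, adjusted p = 1.73e-05) more than in N2 (-0.35 ± 0.11, adjusted p = 0.0211), with an interaction of -0.89 ± 0.15 (adjusted p = 0.00875). The N2 call of nhr-145 was lost without any 1 of the 4 libraries of its groups (adjusted p from 0.0512 to 0.109) and with DESeq2 (adjusted p = 0.0568).

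**Figure D4:**
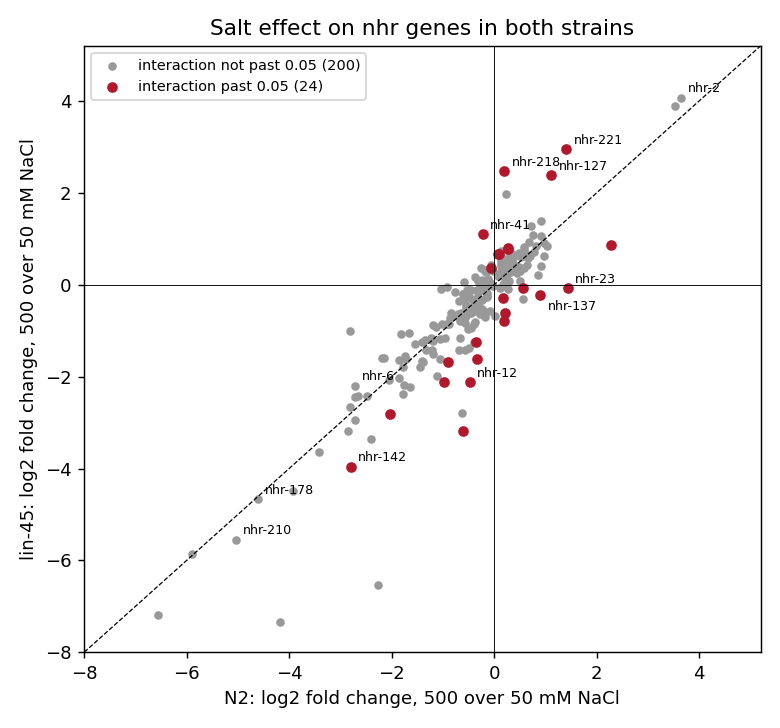
Each point is 1 of the 224 tested receptor genes, with the N2 log2 salt change on the horizontal axis, the lin-45 change on the vertical axis, and a dashed line where they are equal. The 24 genes with a called interaction are red, and nhr-218, nhr-221, nhr-127 and nhr-41 lie above the line while nhr-23, nhr-137, nhr-12 and nhr-142 lie below it. The axes stop short of the deepest fitted falls, so genes beyond them, such as 1 at -9.52 in lin-45, are not drawn. Fitted values of genes without counts in a group depend on the prior count.

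Between the strains, receptor genes differed mostly on 50 mM. On 500 mM, 6 of the 224 members (2.68%) were higher in lin-45 and 4 (1.79%) lower, against 4.84% and 1.65% of all tested genes. On 50 mM, 55 (24.6%) were higher and 32 (14.3%) lower, against 33.2% and 21.1%, and with upper-quartile factors 48 were higher and 49 lower. Single libraries moved these counts: on 50 mM, 28 were higher and 17 lower without N2 50 mM replicate 1, 34 and 17 without lin-45 50 mM replicate 1, and 70 were lower without either preconditioned library. On 500 mM, 1 was higher without N2 500 mM replicate 1 or 2, and 17 and 16 were higher without preconditioned replicate 1 and 2. The median change of members on 50 mM was 0.06, or -0.04 with upper-quartile factors. Both lin-45 50 mM libraries stood above the other 8 for 71 members (31.7%, against 29.1% of all tested genes). Of the 55 higher on 50 mM, 7 had passed the filter only through lin-45 50 mM, and among the 213 other members 48 were higher and 32 lower. No share over all tested genes was taken in the same way. nhr-112 had 4.88 and 5.03 CPM in lin-45 at 500 mM, against 1.73 and 1.35 CPM in N2 at 500 mM (1.67 ± 0.25, adjusted p = 0.0067, or 0.076 without N2 500 mM replicate 2). It had 27.6 and 26.4 CPM in lin-45 at 50 mM, against 9.61 and 10.7 CPM in N2 at 50 mM (1.41 ± 0.21, adjusted p = 0.000716), so lin-45 was the higher strain at each salt. Among members that averaged at least 5 CPM in 1 of the strains on 50 mM, the lowest changes were those of nhr-218, nhr-127 and nhr-41.

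The largest strain difference on 500 mM that passed the test was that of nhr-12 (R04B5.4, chromosome V, bases 10082115 to 10084018 on the minus strand). It had 8.94 and 8.55 CPM in lin-45 at 500 mM, 76.4 and 72.4 in preconditioned N2 and 84.7 and 75.6 in N2 at 500 mM. On 50 mM it had 36.3 and 39.8 CPM in lin-45 and 114 and 108 in N2. Both lin-45 groups lay below all N2 libraries, and lin-45 500 mM lowest of all. The strain change was -3.20 ± 0.10 on 500 mM (adjusted p = 3.08e-06) and -1.55 ± 0.09 on 50 mM (adjusted p = 3.37e-05). The salt change was -2.12 ± 0.09 in lin-45 (adjusted p = 5.91e-07) and -0.47 ± 0.09 in N2 (adjusted p = 0.00134), with an interaction of -1.65 ± 0.13 (adjusted p = 0.0014). All of these calls held in every fit that left out 1 library.

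Higher in lin-45 on 500 mM was nhr-231, with 6.59 and 4.42 CPM in lin-45 at 500 mM, against 1.66 and 1.73 CPM in N2 at 500 mM (1.70 ± 0.25, adjusted p = 0.00638). nhr-7 had 46.3 and 41.8 CPM in lin-45 at 500 mM, against 24.8 and 25.6 CPM in N2 at 500 mM (0.80 ± 0.12, adjusted p = 0.00566), and was higher in lin-45 on 50 mM as well, by 1.07 ± 0.12 (adjusted p = 0.000198). Both calls on 500 mM were lost without N2 500 mM replicate 1, N2 500 mM replicate 2 or lin-45 500 mM replicate 1 (adjusted p = 0.0657, 0.0641 and 0.0554 for nhr-231, and 0.0587, 0.054 and 0.0642 for nhr-7). Between the strains, 6 members were higher in lin-45 at both salts and 2 lower at both. The 6 are all the members called higher on 500 mM, a count that moved with single libraries left out. No share over all tested genes was taken for calls at both salts. Of the members called at both salts, 1, nhr-23, was higher on 50 mM and lower on 500 mM (-0.47 ± 0.12, adjusted p = 0.0494). That last call was lost without any 1 of the libraries of N2 50 mM, N2 500 mM or lin-45 500 mM (adjusted p from 0.0899 to 0.225).

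Growth of the parents on 300 mM went with higher levels of several receptor genes in embryos on 500 mM. Of the 224 members, 30 (13.4%) were higher in N2 300-500 mM than in N2 500 mM and 12 (5.36%) were lower, against 10.2% and 12.0% of all tested genes. Without N2 500 mM replicate 1 or 2, 14 and 11 were higher and 4 and 3 lower, and without preconditioned replicate 2, 27 were lower. Against N2 50 mM, preconditioned embryos had 41 members higher (18.3%, against 30.4%) and 73 lower (32.6%, against 27.9%), and this comparison shares its libraries with the others. Without N2 50 mM replicate 1 or 2, 25 and 24 were higher, and without replicate 2, 48 were lower.

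nhr-62 (Y67A6A.2, chromosome I, bases 9839588 to 9844801 on the plus strand), needed for the long life of worms on a restricted diet, had 75.2 and 67.3 CPM in preconditioned N2, 37.2 and 39.1 in N2 at 500 mM and 55.3 and 55.2 in N2 at 50 mM. The preconditioned libraries were above all others, and the change against N2 500 mM was 0.90 ± 0.10 (adjusted p = 0.000914). nhr-60 was higher by 1.26 ± 0.20 (adjusted p = 0.00321). nhr-178 had 2.16 and 2.49 CPM in preconditioned N2, against 0.931 and 1.05 CPM in N2 at 500 mM (1.23 ± 0.16, adjusted p = 0.00153), both far under the level on 50 mM. nhr-15 was higher by 0.79 ± 0.14 (adjusted p = 0.0052), nhr-177 by 0.81 ± 0.11 (adjusted p = 0.002) and nhr-98 by 0.79 ± 0.13 (adjusted p = 0.00373). nhr-76, which acts in fat loss driven by serotonin, was higher by 1.24 ± 0.21 (adjusted p = 0.0045), at 4.06 and 5.3 CPM in preconditioned N2, against 2.16 and 1.77 CPM in N2 at 500 mM.

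Lower in preconditioned embryos were nhr-88, nhr-85, nhr-80, nhr-53, nhr-99 and nhr-206. nhr-88 had 58.1 and 72.7 CPM in preconditioned N2, 114 and 103 in N2 at 500 mM and 61.6 and 65.3 in N2 at 50 mM. The preconditioned libraries lay near those on 50 mM and below N2 500 mM (-0.73 ± 0.11, adjusted p = 0.00268). nhr-85 had 13 and 14.8 CPM in preconditioned N2, 20.9 and 21.7 in N2 at 500 mM and 18.7 and 19.9 in N2 at 50 mM (-0.61 ± 0.12 against N2 500 mM, adjusted p = 0.00915). nhr-206 had 2.86 and 4.66 CPM in preconditioned N2, against 9.78 and 8.34 CPM in N2 at 500 mM (-1.27 ± 0.26, adjusted p = 0.00975). The changes of the others were -0.61 ± 0.15 for nhr-80, -0.64 ± 0.12 for nhr-53 and -0.90 ± 0.22 for nhr-99 (adjusted p = 0.0189, 0.00743 and 0.02). Calls were lost for nhr-85 without N2 500 mM replicate 2 (adjusted p = 0.0583), for nhr-206 without N2 500 mM replicate 1 (0.0644), for nhr-53 without N2 500 mM replicate 2 (0.0586), for nhr-99 without N2 500 mM replicate 1 (0.13), and for nhr-80 without N2 500 mM replicate 1 or 2 (0.0613 and 0.105).

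Receptor genes crowd on chromosome V, which carries 171 of the 278 members and 147 of the 224 tested (65.6%). On V, 76 of 147 members fell and 21 rose on salt in N2, where 39.9% of all tested genes on that chromosome fell and 25.9% rose. On the other chromosomes 23 of 77 fell and 24 rose, where 29.9% of all tested genes fell and 32.9% rose. The falls on V count members that passed the filter only through libraries on 50 mM, such as nhr-106 and nhr-210. The filter therefore set part of these counts. Joining members less than 10 kb apart gave 46 runs with 168 members, of which 32 runs with 128 members lie on V. In N2, the members called on salt were all lower in 22 runs, all higher in 7 and of both directions in 8. The runs that were all lower include that of nhr-74 and nhr-73, which passed the filter only through libraries on 50 mM. Over all tested members, 44.2% fell and 20.1% rose in N2, and no such count was made for runs of other genes. Whether members of a run share a direction was not tested.

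Among the 4 runs with most members, a neighbouring pair had mostly opposite directions. In a run of 9 members at bases 2210514 to 2235137 of chromosome V, 6 rose and none fell on salt in lin-45, and 5 rose and 1 fell in N2, where none fell without N2 500 mM replicate 2. nhr-18 in this run had 22.8 and 22.6 CPM in lin-45 at 500 mM, 24 and 23.3 in N2 at 500 mM, 11.5 and 12.5 in lin-45 at 50 mM and 11.2 and 12.8 in N2 at 50 mM, with no overlap between salts (0.92 ± 0.12 in lin-45 and 0.97 ± 0.12 in N2, adjusted p = 0.000179 and 0.000164). In the next run, of 8 tested among 9 members at bases 2257422 to 2297007, 7 fell in lin-45, and 7 fell and 1 rose in N2. nhr-182 at its edge had 13.5 and 12.8 CPM in lin-45 at 500 mM, 8.28 and 9.86 in N2 at 500 mM, 37.8 and 42.6 in lin-45 at 50 mM and 30.2 and 29.2 in N2 at 50 mM, again with no overlap (-1.61 ± 0.11 in lin-45 and -1.71 ± 0.11 in N2, adjusted p = 4.68e-06 and 5.19e-06). The longest run, 12 members at bases 451451 to 497288 and including nhr-106, had 6 lower and 2 higher in lin-45, and 6 lower and none higher in N2. The 6 in N2 were 3 without N2 50 mM replicate 1 or N2 500 mM replicate 1 and 2 without N2 50 mM replicate 2. Without either lin-45 50 mM or either preconditioned library 1 was higher in N2. The 2 higher in lin-45 were 1 without either N2 50 mM library, lin-45 50 mM replicate 1 or lin-45 500 mM replicate 1. The remaining run of the 4, at 9 members, had 4 lower in lin-45 and 1 lower in N2, and none higher. Without either preconditioned library it had 1 higher in lin-45 and 2 lower in N2. Members of a run are not independent of each other, and reads of similar neighbours may be split between them. In the run with nhr-182, the 7 lower include nhr-115 and nhr-225, which overlap each other and cannot be taken as separate. Both nhr-106, lower in the longest run, and nhr-159, lower in lin-45 in the remaining run, passed the filter only through libraries on 50 mM.

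**Figure D5:**
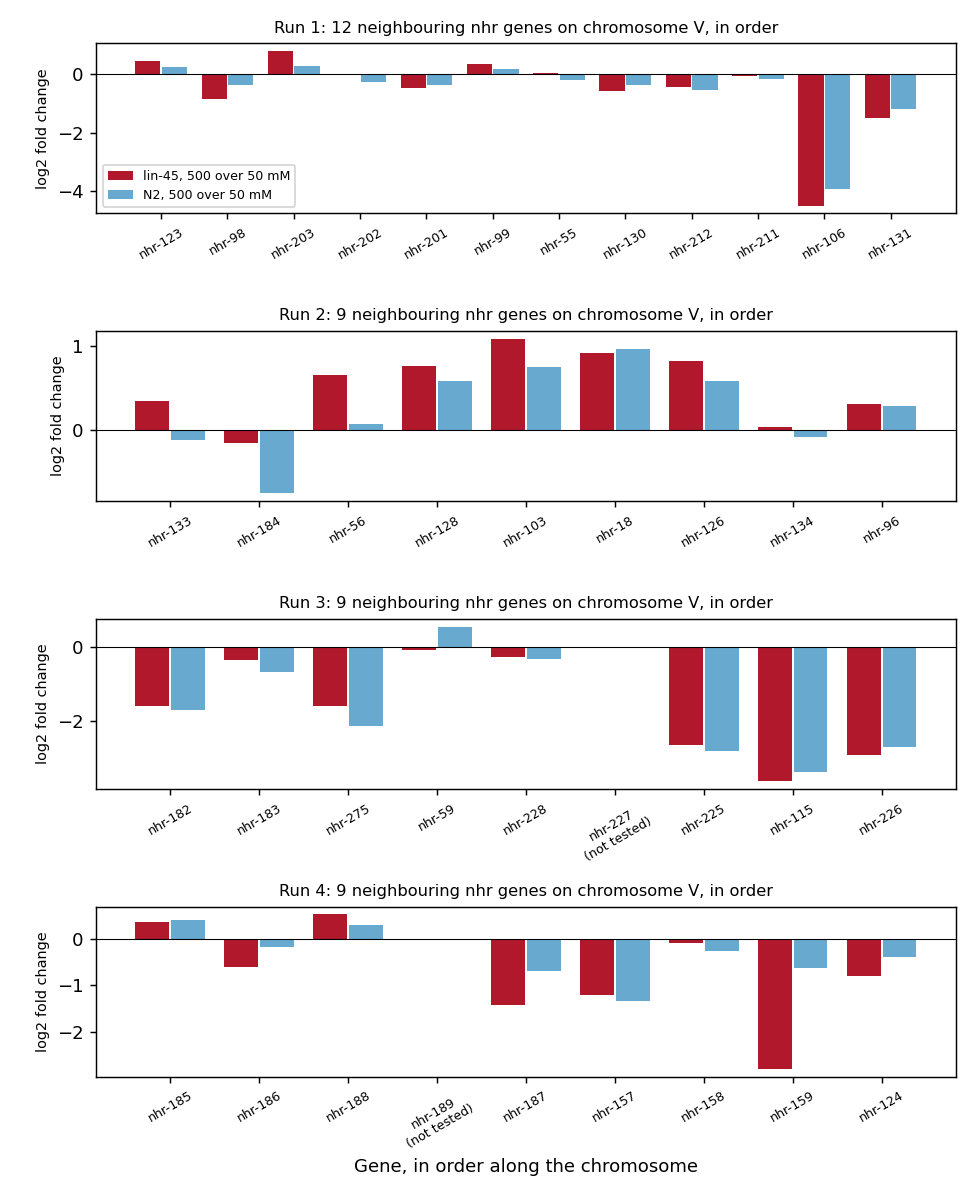
Bars give the log2 salt change (500 over 50 mM) of each gene in lin-45 and in N2 for the 4 runs with most members, with genes in their order along chromosome V. In the run that holds nhr-56 most bars point up, and in the run that starts with nhr-182, next to it, most point down.

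Receptors of the family that carry other names, and partner genes, gave the following counts. For the salt counts, shares of all tested genes were 33.4% higher and 34.9% lower in lin-45, and 31.4% and 32.1% in N2. Of the 5 other receptors, 2 rose and 2 fell on salt in each strain. The falls in each strain count unc-55, which passed the filter only through libraries on 50 mM. With single libraries left out, as few as 1 rose and 1 fell in N2 and none fell in lin-45, the last without lin-45 500 mM replicate 2. sex-1, which reads the X chromosome dose, had 47 and 53.8 CPM in lin-45 at 500 mM, 79.2 and 24.4 in preconditioned N2 and 54.7 and 69.9 in N2 at 500 mM. On 50 mM the values were 12.7 and 13.6 CPM in lin-45 and 10.6 and 10.4 in N2. It was higher in all libraries on 500 mM, and the preconditioned replicates lay far apart in the way nhr-2 did. Its change was 1.94 ± 0.44 in lin-45 (adjusted p = 0.0042) and 2.57 ± 0.45 in N2 (adjusted p = 0.0012). daf-12, the receptor of the steroid dafachronic acid, fell in both strains, with -0.40 ± 0.10 in lin-45 (adjusted p = 0.00575, or 0.0619 without lin-45 500 mM replicate 2) and -0.49 ± 0.10 in N2 (adjusted p = 0.00238).

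Of 5 genes that make or divert dafachronic acid, 2 rose and 3 fell on salt in each strain. The falls in each strain count hsd-1, which passed the filter only through libraries on 50 mM. With a filter of 5 CPM in 2 libraries, 1 fell in each strain. daf-36, the oxygenase of the first step to dafachronic acid, had 3.87 and 4.93 CPM in lin-45 at 500 mM. It had 4.73 and 4.51 CPM in preconditioned N2 and 3.06 and 3.58 in N2 at 500 mM. The libraries on 50 mM had 28.4 and 25.5 CPM in lin-45 and 14.8 and 16.4 in N2. All libraries on 500 mM were under 5 CPM and all on 50 mM above 14 CPM. The change was -2.61 ± 0.15 in lin-45 (adjusted p = 1.94e-06) and -2.24 ± 0.16 in N2 (adjusted p = 6.42e-06). daf-9, the cytochrome P450 of the last step, fell as well, with -0.93 ± 0.19 in lin-45 (adjusted p = 0.00217) and -1.27 ± 0.20 in N2 (adjusted p = 0.000612). In contrast, dhs-16, a steroid dehydrogenase, rose by 1.99 ± 0.20 in lin-45 (adjusted p = 3.83e-05) and 1.03 ± 0.19 in N2 (adjusted p = 0.00137). Of 3 coregulators, the corepressor din-1 and the acetyltransferase cbp-1 rose on salt in each strain, with din-1 at 0.70 ± 0.07 in lin-45 and 0.66 ± 0.07 in N2 (adjusted p = 4e-05 and 7.18e-05). The Mediator subunit mdt-15, the coactivator of NHR-49, fell in lin-45 (-0.23 ± 0.07, adjusted p = 0.0189) and in N2 (-0.51 ± 0.07, adjusted p = 0.000313). The lin-45 call of mdt-15 was lost without lin-45 50 mM replicate 1, either lin-45 500 mM library or either preconditioned library (adjusted p from 0.0562 to 0.242) and with DESeq2 (adjusted p = 0.0686).

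Of 7 genes known to depend on NHR-23 for moulting, 6 rose and 1 fell on salt in lin-45, and 4 rose and 1 fell in N2. Over all tested genes, 33.4% rose and 34.9% fell in lin-45, and 31.4% rose and 32.1% fell in N2. The fall in lin-45 was that of nas-37, which would not have passed the filter on the libraries on 500 mM alone. None fell in lin-45 without lin-45 50 mM replicate 1 or either lin-45 500 mM library, or in N2 without N2 500 mM replicate 1. On 50 mM, 5 of the 7 were lower in lin-45 than in N2 and 1 was higher, whereas nhr-23 was itself higher in lin-45. Of all tested genes, 21.1% were lower and 33.2% higher in lin-45 on 50 mM. mlt-11, a protease inhibitor of the cuticle, had 504 and 498 CPM in lin-45 at 500 mM, 713 and 733 in preconditioned N2 and 603 and 644 in N2 at 500 mM. Levels on 50 mM were 49 and 77.6 CPM in lin-45 and 240 and 190 in N2. Libraries on 500 mM were above all on 50 mM, and lin-45 50 mM was lowest (-1.76 ± 0.19 against N2 50 mM, adjusted p = 0.000212). The exception was fbn-1, a fibrillin-like matrix gene, which was higher in lin-45 on 50 mM by 1.57 ± 0.32 (adjusted p = 0.00354). Of the 7, mlt-10 and noah-1 are also on the list of late differentiation markers, and the epidermal markers given above moved with them.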

How the data were processed

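RNA of whole embryos was sequenced as paired reads of polyA libraries on a NextSeq, per the labels' protocols. The authors deposited RSEM expected counts and FPKM values per gene, with log2 fold changes and a variance measure of their own that were not used. Build ce10, RSEM 1.2.15 and BWA 0.6.1, along with DESeq 1.10.1 and bedtools 2.25.0, are listed by the submitters' processing notes. Which strand setting and annotation release were used is not given there. Of the nonzero expected counts 59.9% were whole, and they were rounded before testing. Library totals were 22138098 to 34585489, which limits precision mainly for members under 1 CPM, and intervals cover counting error only.

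Genes with at least 1 CPM in at least 2 libraries were kept. One edgeR 4.0.16 quasi-likelihood fit (R 4.3.3, trimmed mean of M values) over all 10 libraries with 1 coefficient per group gave 7 comparisons, and p-values were adjusted over 14802 genes. CPM values are scaled by the same factors. FPKM values were averaged over libraries as deposited. The fit was tested on simulated data. Alternatives were DESeq2 1.42.0, other scaling factors, no filter, a replicate block and leaving out each library.

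Members and lists were chosen with earlier results of these data known. Members were named if they stand on a role list (receptors with counterparts in other animals, metabolism, stress, development), are among the 6 highest or 6 lowest called changes of a comparison with a mean of at least 5 CPM, are among the 10 most abundant, or lie nearest the 1 CPM rule. Other genes come from the partner and marker lists. Same-numbered replicates were not paired: their deviations had correlations from -0.284 to 0.112. The muscle, tissue specification and adult yolk marker lists were measured as well, and their sums were 6079 to 11120 CPM, 292 to 589 CPM and 2.17 to 4.84 CPM over the libraries. No sequences are printed.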

Additional observations from a re-analysis of the deposited data

Results flagged for a closer look

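For the members below, the salt change in lin-45 and the salt change in N2 differed by the interaction test of the edgeR fit. Above 0 stood nhr-218 with a difference of 2.26 (2.47 in lin-45 and 0.20 in N2), nhr-221 with 1.53 (2.95 in lin-45 and 1.41 in N2), nhr-41 with 1.32 (1.1 in lin-45 and -0.22 in N2) and nhr-127 with 1.27 (2.39 in lin-45 and 1.12 in N2). Smaller differences were those of nhr-56 with 0.58 (0.66 in lin-45 and 0.07 in N2), nhr-67 with 0.57 (0.66 in lin-45 and 0.09 in N2), nhr-91 with 0.52 (0.80 in lin-45 and 0.28 in N2) and nhr-48 with 0.43 (0.37 in lin-45 and -0.06 in N2). Below 0 stood nhr-12 with -1.65 (-2.12 in lin-45 and -0.47 in N2), nhr-23 with -1.51 (-0.07 in lin-45 and 1.44 in N2), nhr-142 with -1.18 (-3.96 in lin-45 and -2.79 in N2) and nhr-30 with -1.15 (-2.12 in lin-45 and -0.97 in N2). The last of these below 0 were nhr-137 with -1.13 (-0.23 in lin-45 and 0.90 in N2) and nhr-145 with -0.89 (-1.24 in lin-45 and -0.35 in N2).

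The calls of nhr-30, nhr-48 and nhr-56 were the least stable of these. With single libraries left out their adjusted p ran up to 0.14 for nhr-30, 0.13 for nhr-48 and 0.132 for nhr-56. nhr-30 also lost its call with relative log expression factors (0.054), upper-quartile factors (0.062), no filter (0.0779) and DESeq2 (0.0879).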

How the results depend on the processing

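Of 355 calls of named members and partner genes, 329 had a value under all 17 alternatives, and 218 of those held under all. The other 26 calls had no value under some, and 12 of them held wherever there was one. In all, 125 were lost under at least 1 alternative, and none changed direction. The salt counts stayed within 1.5 times: leaving out single libraries gave 37 to 71 higher and at least 81 lower members in lin-45, and 33 to 50 higher and 73 to 105 lower in N2. The interaction counts (9 above and 15 below 0) were less stable, with 9 below under relative log expression factors, 16 above and 9 below under upper-quartile factors, 8 below with no filter on low counts and 7 below with DESeq2. Upper-quartile factors moved the median interaction of all genes by 0.104. Single libraries left out gave 2 to 41 above and 5 to 13 below, with 41 above without either preconditioned library. Fewer than 6 were above without N2 50 mM replicate 1 or 2, lin-45 50 mM replicate 1, N2 500 mM replicate 2 or lin-45 500 mM replicate 1, and 9 or fewer were below without any 1 library of these 4 groups. For lin-45 50 mM against N2 50 mM (55 higher and 32 lower), 35 were higher and 50 lower with no filter and 49 lower with upper-quartile factors. Single libraries left out gave 28 to 54 higher and 17 to 70 lower, the 70 again without either preconditioned library, 52 lower without lin-45 500 mM replicate 2, 17 lower and 28 or 34 higher without N2 50 mM replicate 1 or lin-45 50 mM replicate 1, and 32 higher without lin-45 50 mM replicate 2. The ranges were 1 to 17 higher and 1 to 6 lower for lin-45 500 mM against N2 500 mM (1 or 2 higher without N2 500 mM replicate 1 or 2 or lin-45 500 mM replicate 1, 17 and 16 without preconditioned replicate 1 and 2, and 1 or 2 lower without any 1 library of N2 50 mM, N2 500 mM or lin-45 500 mM), 11 to 37 higher and 3 to 27 lower for N2 300-500 mM against N2 500 mM, and 24 to 40 higher and 48 to 93 lower for N2 300-500 mM against N2 50 mM. The cause was not tested. In a fit that leaves out 1 library, its group has 1 sample, which is assumed to vary like the other groups. The propionate shunt genes hach-1 and hphd-1 and the dafachronic acid gene strm-1 were not among the 355 calls. The deposited data give them sequence names, and their calls were not checked under the alternatives.

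Same-numbered replicates share only a number. With the replicate number as a block, 8 members were below 0 in the interaction and 2 were lower in lin-45 500 mM than in N2 500 mM, and no other count over the 224 members moved by over 1.5 times. Of the 355 calls, 26 were lost with the block, among them the interactions of nhr-48, nhr-30 and nhr-56 (adjusted p = 0.0625, 0.0664 and 0.0597), the strain difference of nhr-23 on 500 mM (0.0797) and acdh-1 in preconditioned N2 against N2 500 mM (0.0539). Depth limits the members under 1 CPM, and strandedness limits the 42 tested members that overlap another gene model with counts.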
